A study of Mus musculus with 4 samples.

Results

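The deposited long non-coding RNA (lncRNA) tables of mouse ovary held 50821 features listed in at least 1 library. Described here are 4 abundant ones, NONMMUG044354.2, NONMMUG044353.2, NONMMUG022192.2 and NONMMUG000268.2, of which only the first was dominant. NONMMUG044354.2 and NONMMUG044353.2, whose identifier numbers are consecutive, were chosen by their counts, since they held the largest counts among long features. NONMMUG022192.2 and NONMMUG000268.2 were added because their shares of the counts moved alike with those of the first features. Counts and shares in these same libraries therefore chose all 4, and their levels and the difference between the groups are given as a description, with no test. One group of 2 libraries, called day 3, came from ovaries of mice aged 3 days, which the labels place before follicle initiation. The other 2 libraries, called cultured, came from ovaries taken at 3 days of age and kept in culture for 8 days, which the labels place after initiation. The labels name no strain, genotype or agent in either group and do not say whether ovaries were pooled or came from separate animals, so p-values measure only the spread between these libraries, which could be technical. Age and culture cannot be told apart, since the cultured ovaries are also older by the days of culture. The tables give identifiers without gene symbols, so ovarian marker genes could not be looked up, and the labelled tissue was not checked against them.

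A primordial follicle is a resting oocyte with a single layer of flattened granulosa cell precursors around it, and initiation is its entry into growth. Mitochondria, which are plentiful in oocytes, carry a small genome of their own that encodes the rRNAs of the mitochondrial ribosome, a set of tRNAs and subunits of the respiratory chain. Its transcripts are processed from long precursors and are among the most abundant RNAs of many cells, and total RNA libraries can hold many reads of them. Copies of mitochondrial sequence also lie in nuclear chromosomes, and annotation of non-coding RNA can list such transcripts under its own identifiers. Identifiers that begin with NONMMUG follow the form used for mouse genes in NONCODE, a database of non-coding RNA. A mitochondrial origin of the 4 features is unproven: the only support is length and abundance, and the tables give neither sequence nor position, neither of which was used here.

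Only 1 of the 3 features with a single transcript had the length of a mitochondrial rRNA. Lengths were compared with those of the mouse mitochondrial genes in GENCODE M21, by length alone. NONMMUG044353.2 had a single transcript of 955 bases, the length of mt-Rnr1, the rRNA of the small subunit of the mitochondrial ribosome. NONMMUG022192.2 had a single transcript of 1545 bases, the length of mt-Co1, which encodes a subunit of cytochrome c oxidase and is no rRNA. NONMMUG044354.2, the feature with the most counts, had a single transcript of 2555 bases, which matched no mitochondrial gene. That is 973 bases longer than mt-Rnr2, the rRNA of the large subunit (1582 bases), and 51 bases shorter than the 2606 bases from the start of mt-Rnr1 to the end of mt-Rnr2. NONMMUG000268.2 was listed with 3 transcripts and a mean length that varied between libraries, so no length match could be made.

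A mitochondrial gene length alone did not single out a feature in these tables, though few features had one. All 15 mitochondrial genes long enough to be listed (2 rRNA and 13 protein coding) shared their length with 7 to 30 single-transcript features each, 261 of 39312 single-transcript features (0.664%). The single-transcript features differed from others of the same length in abundance, but counts and shares chose them, so this contrast is no separate result. It was also seen at 2555 bases, the length of no mitochondrial gene. There NONMMUG044354.2 had a mean count over the 4 libraries of 9047443, and the next, NONMMUG037984.2, had 105. Of 25 single-transcript features of 955 bases, NONMMUG044353.2 had a mean count over the 4 libraries of 820575, and the next, NONMMUG014202.2, had 197. Of 11 such features of 1545 bases, NONMMUG022192.2 had a mean count of 161818, and the next, NONMMUG009503.2, had 77. No abundant single-transcript feature had the length of mt-Rnr2, where the most counted of 17 features, NONMMUG015536.2, had a mean count of 68.9. Only 4 of the 15 lengths were held by a feature with a mean count of at least 1000. The others were the 784 bases of mt-Co3, where NONMMUG055114.1 had a mean count of 1061, and the 297 bases of mt-Nd4l, held by NONMMUG009157.2 and NONMMUG009163.2. Reference transcripts of other genes have these lengths too, 58 transcripts at 955 bases, 23 at 1545 and 18 at 2555 among 141767, mt-Rnr1 and mt-Co1 included.

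The 4 features together held most of the listed counts of a library (its summed estimated counts) at day 3, and a smaller share after culture. The share was 56.0% and 51.6% in day 3 libraries 1 and 2, and 33.1% and 28.9% in cultured libraries 1 and 2. The mean was 53.8% ± 3.09 (SD, n = 2) before culture and 31.0% ± 2.97 (SD, n = 2) after it, a difference of -22.7 percentage points, and the groups did not overlap. Summed counts of the 4 features were 14867969 and 13584047 at day 3 and 6939017 and 5270539 after culture. In bulk tissue, fewer cells of a type and less RNA per cell cannot be told apart.

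**Figure D1:**
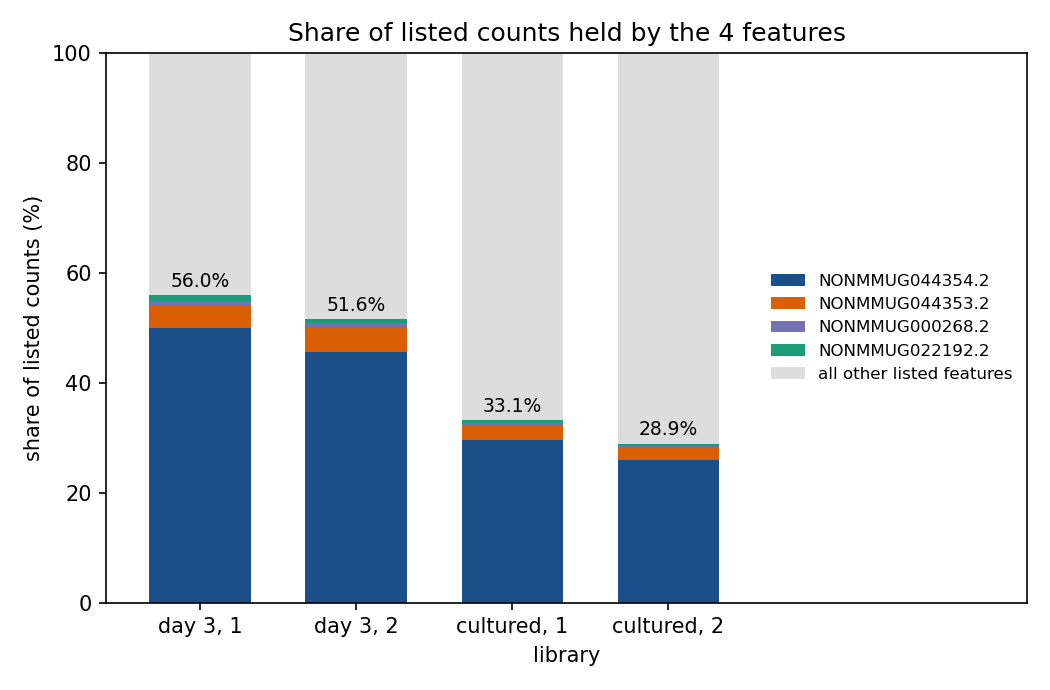
Stacked bars give the share of listed counts (%, vertical axis) held by each of the 4 features and by all other listed features in each of the 4 libraries (horizontal axis), with the summed share of the 4 above its segments. The sum is 56.0% and 51.6% in the day 3 libraries and 33.1% and 28.9% in the cultured libraries, nearly all of it from NONMMUG044354.2.

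NONMMUG044354.2 was the feature with the most counts in each of the 4 libraries. Its estimated counts were 13289535 and 12002865 at day 3, or 50.02% and 45.6% of the listed counts. They were 6181826 and 4715547 after culture, or 29.5% and 25.9%. The gap between the libraries of a group, 4.43 percentage points at day 3 and 3.64 after culture, is the error that bears on the group difference. The Wilson 95% interval of each share was at most ± 0.0201 percentage points and covers counting error only. In FPKM, which divides by length and library total, it had 108124 and 97986 at day 3 and 55812 and 45615 after culture. Both cultured libraries were below both day 3 libraries, with a mean FPKM 2.03 times as high at day 3. Its place by FPKM was 4 in each day 3 library and 5 in each cultured library, behind shorter features with fewer counts.

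NONMMUG044353.2, of mt-Rnr1 length, held 4.09% and 4.58% of the listed counts at day 3 and 2.72% and 2.32% after culture. Its FPKM was 24642 and 27506 at day 3 and 14308 and 11369 after culture, and again the groups did not overlap. The mean FPKM at day 3 was 2.03 times that after culture. Its counts were whole numbers in all 4 libraries (1086094, 1204577, 569585 and 422043), whereas those of the other 3 features carried decimals in every library.

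NONMMUG022192.2, of mt-Co1 length, held 1.03% and 0.756% of the listed counts at day 3 and 0.485% and 0.400% after culture. In FPKM it reached 3744 and 2732 before culture and 1539 and 1185 after it, a mean 2.38 times as high at day 3. Day 3 library 1 was the highest of the 4 and cultured library 2 the lowest, and the groups did not overlap.

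NONMMUG000268.2, with 3 transcripts, had 0.822% and 0.675% of the listed counts at day 3 and 0.411% and 0.330% after culture. In FPKM it reached 3901 and 2967 before culture and 1838 and 1306 after it, a mean 2.18 times as high at day 3. The libraries stood in the same order as for NONMMUG022192.2, with day 3 library 1 highest and cultured library 2 lowest.

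**Figure D2:**
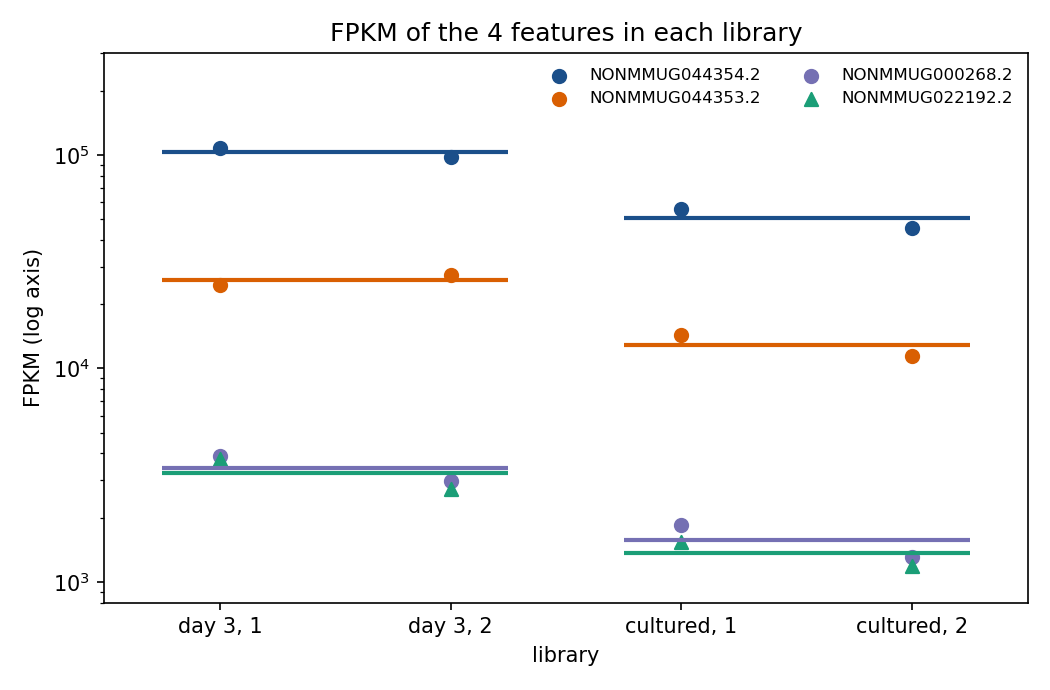
Points give FPKM (vertical log axis) of each of the 4 features in each library (horizontal axis), and bars mark the mean of the 2 libraries of a group. For all 4 features both cultured libraries lie below both day 3 libraries, from 108124 and 97986 to 55812 and 45615 for NONMMUG044354.2.

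By FPKM, levels stood in the order NONMMUG044354.2, NONMMUG044353.2, NONMMUG000268.2 and NONMMUG022192.2 in every library. The last 2 of these lay close together, in the same order within each library. NONMMUG000268.2 was 1.04, 1.09, 1.19 and 1.10 times as high as NONMMUG022192.2 in FPKM in day 3 libraries 1 and 2 and cultured libraries 1 and 2, and their ranges overlapped within each group. By counts the order of these 2 was reversed in every library.

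Cultured libraries below day 3 libraries were not rare among all features. Of 8557 features that reached FPKM 0.5 in at least 2 libraries, 1611 (18.8%) had both cultured libraries below both day 3 libraries in FPKM, as all 4 of these features did. In edgeR's quasi-likelihood fit over the same features with TMM scaling (trimmed mean of M-values), log2 fold changes, cultured minus day 3, were -1.35 (SE 0.648) for NONMMUG044354.2 and -1.35 (SE 0.546) for NONMMUG044353.2. They were -1.59 (SE 0.503) for NONMMUG022192.2 and -1.60 (SE 0.492) for NONMMUG000268.2. With libraries scaled by the totals that underlie FPKM, they were -1.02, -1.01, -1.24 and -1.25 in the same order, and with listed counts as the scale -0.79, -0.78, -1.01 and -1.02. Leaving out each library in turn in the TMM-scaled fit gave -1.22 to -1.83 over the 4 features. The SE comes from the fit and changed with the scaling. For NONMMUG044354.2 it was 0.183 with listed counts without the 4 features, and 0.760 with TMM without them. Since counts and shares of these libraries chose the features, no p-value or call is given for them.

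Among the 4 features, NONMMUG044354.2 made up most of the summed counts in every library, and NONMMUG022192.2 and NONMMUG000268.2 made up a little less of them after culture. NONMMUG044354.2 made up 89.4% and 88.4% of the summed counts of the 4 at day 3 and 89.1% and 89.5% after culture. Its ratio to NONMMUG044353.2 comes from the same counts that chose both features, though the choice did not use the ratio itself. In counts this ratio was 12.2 and 9.96 at day 3 and 10.9 and 11.2 after culture. The cultured libraries lay between the day 3 libraries, with a mean of 11.1 ± 1.61 (SD, n = 2) at day 3 and of 11.01 ± 0.226 (SD, n = 2) after culture. The exact permutation p, two-sided, was 1, but 2 libraries against 2 cannot go below 0.333, so this does not show that the ratio was kept. The difference of the means, -0.087, ran from -1.22 to 1.05 with 1 library left out. In FPKM the ratio was 4.39 and 3.56 at day 3 and 3.90 and 4.01 after culture. Over the 4 libraries the highest ratio was 1.23 times the lowest in both units. Over the same libraries FPKM ran from 45615 to 108124 for NONMMUG044354.2 and from 11369 to 27506 for NONMMUG044353.2. How often 2 features with a similar difference between the groups have so narrow a ratio was not examined.

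NONMMUG022192.2 made up 1.84% and 1.46% of the summed counts of the 4 at day 3 and 1.46% and 1.38% after culture, and NONMMUG000268.2 made up 1.47% and 1.31% at day 3 and 1.24% and 1.14% after culture. Neither overlapped between the groups, though for NONMMUG022192.2 the nearest libraries, day 3 library 2 and cultured library 1, were at 1.4646% and 1.4636%. How often such shares or ratios part the groups among other features was not examined. With 2 libraries against 2 a separation arises easily, so it is given here as a description only. NONMMUG044354.2 had 48.5 and 60.3 times the counts of NONMMUG022192.2 at day 3 and 60.9 and 64.7 times after culture. Against NONMMUG000268.2 the ratio was 60.8 and 67.6 at day 3 and 71.8 and 78.6 after culture. Both count ratios were thus higher in each cultured library than in either day 3 library. In FPKM the ratio to NONMMUG022192.2 was 28.9 and 35.9 at day 3 and 36.3 and 38.5 after culture, again without overlap. The FPKM ratio to NONMMUG000268.2 was 27.7 and 33.0 at day 3 and 30.4 and 34.9 after culture, which overlapped.

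The count ratio that varied least over the 4 libraries was that of NONMMUG000268.2 to NONMMUG022192.2, at 0.798 and 0.893 at day 3 and 0.847 and 0.823 after culture. The widest ratio was that of NONMMUG044353.2 to NONMMUG022192.2, at 3.97 and 6.05 at day 3 and 5.61 and 5.79 after culture. There the day 3 libraries differed more from each other than from the cultured libraries. Within day 3, NONMMUG044353.2 was higher in library 2, while the other 3 features were higher in library 1. The likeness of the shares was part of how NONMMUG022192.2 and NONMMUG000268.2 were chosen, so ratios with either are given without a test.

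The mean transcript length of NONMMUG000268.2 was shorter after culture. The authors' length for a feature with several transcripts varied by library, and it was 1197 and 1282 bases at day 3 and 1113 and 1168 bases after culture. The means were 1240 ± 59.98 and 1141 ± 38.8 bases (SD, n = 2 each), a difference of -99.1 bases, with no overlap between the groups. An exact permutation test over libraries, two-sided, gave p = 0.333, and no smaller value is possible with 2 against 2. Of 1999 features with several transcripts and a length that varied, 347 (17.4%) had both cultured libraries shorter than both day 3 libraries, so a shift of this kind was common. Lengths of the 3 transcripts are not given in the tables, so which of them gained or lost counts cannot be read from the mean.

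Other features followed the profile of NONMMUG044354.2 about as closely as the chosen ones. Profiles were log2 FPKM in each library minus the feature's mean over the 4 libraries, and likeness was the largest gap to NONMMUG044354.2 in any library, over 276 features with FPKM of at least 10 in every library. NONMMUG044353.2 was in place 1 with a largest gap of 0.15 (log2), NONMMUG000268.2 was in place 3 with 0.18, and NONMMUG022192.2 in place 10 with 0.26. The median of all compared features was 0.95. Since NONMMUG000268.2 and NONMMUG022192.2 were chosen because their shares moved alike, their small gaps follow from that choice. The 5 other features with the smallest gaps were NONMMUG029641.2 (0.17), NONMMUG070203.1 (0.18), NONMMUG040611.2 (0.24), NONMMUG011280.2 (0.25) and NONMMUG057349.1 (0.25). NONMMUG029641.2, a single transcript of 1143 bases, stood at FPKM 170.67 and 151.09 in the day 3 libraries and at 88.63 and 61.35 in the cultured ones. NONMMUG070203.1, 650 bases long, stood at 263.22 and 242.76 before culture and at 120.73 and 126.95 after it. These features were far less abundant, and with 4 libraries in 2 groups a small gap says little beyond a similar difference between the groups.

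**Figure D3:**
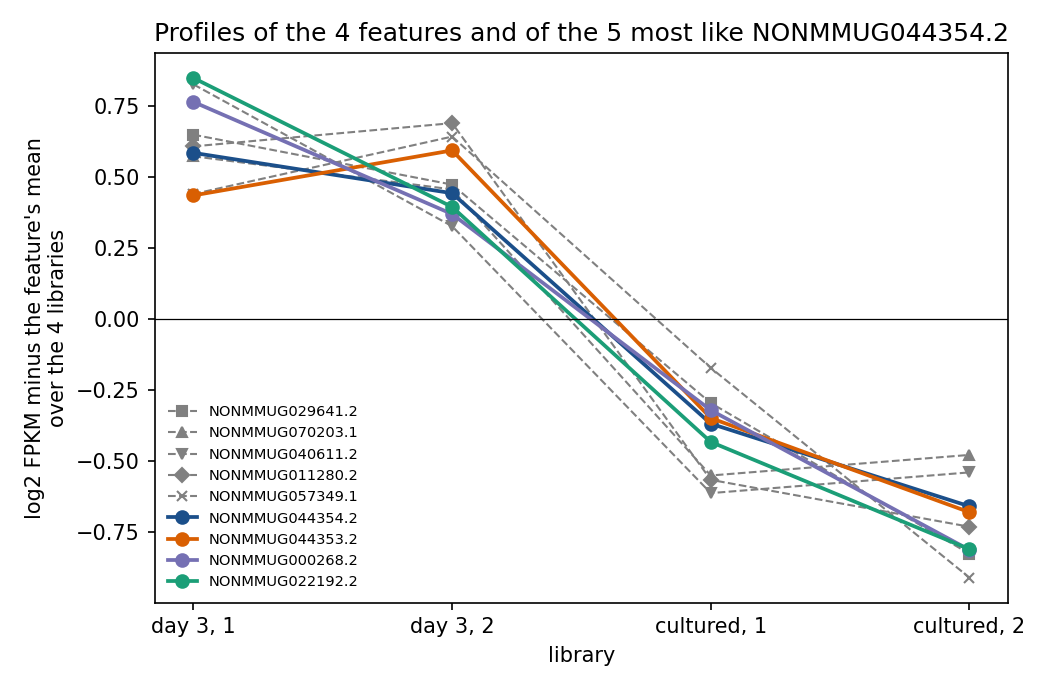
Lines join, for each feature, log2 FPKM minus its mean over the 4 libraries (vertical axis) in each library (horizontal axis; libraries of a group have no order), for the 4 features in colour and the 5 others most like NONMMUG044354.2 in grey. All lie above 0 in the day 3 libraries and below 0 in the cultured libraries, and NONMMUG044353.2 is nearest to NONMMUG044354.2, with a largest gap of 0.15.

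Features with neighbouring identifier numbers were also examined, within 10 numbers of each feature. Numbers alone do not give a position in the genome. On the lower side of NONMMUG044353.2, 8 features were listed, and none exceeded FPKM 2.2 in any library. On the upper side, the 4 features from NONMMUG044355.2 to NONMMUG044358.2 had FPKM of at least 10 in every library, a level reached by 238 of 47459 NONMMUG features (0.501%). They did not share the pattern of the chosen features as a group. The FPKM of NONMMUG044358.2, a transcript with 939 bases, was 37.61 and 29.32 in the day 3 libraries and 22.53 and 19.36 in the cultured ones, without overlap. NONMMUG044357.2 (574 bases) stood at 90.83 and 122.86 at day 3 and 91.14 and 55.63 after culture, and these overlapped. NONMMUG044355.2 had 12.04 and 18.45 at day 3 and 25.07 and 17.78 after culture, and NONMMUG044356.2 had 24.46 and 26.03 at day 3 and 36.46 and 19.15 after culture, both with overlap. NONMMUG044354.2 exceeded NONMMUG044355.2 8980-fold and 5311-fold at day 3 and 2226-fold and 2566-fold after culture, the ratio that varied most among these 4 neighbours. Over the libraries its highest value was 4.03 times the lowest. For NONMMUG044356.2, NONMMUG044357.2 and NONMMUG044358.2 the highest ratio was 2.89, 1.94 and 1.42 times the lowest.

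The next number after NONMMUG022192.2 had a similar pattern to it. NONMMUG022193.2, a single transcript of 510 bases, reached FPKM 164.70 and 122.10 before culture and 84.49 and 48.86 after it. NONMMUG022192.2 was 22.7 and 22.4 times as high at day 3 and 18.2 and 24.2 times as high after culture, ranges that overlap. The 11 other neighbours listed there stayed at FPKM 0.81 or below in every library. Around NONMMUG000268.2, 10 features were listed and none reached FPKM 10 in every library. Its next numbers, NONMMUG000267.2 and NONMMUG000269.2, were higher in both cultured libraries, at FPKM 3.97 and 5.10 against 7.05 and 7.50, and 2.22 and 2.55 against 3.28 and 4.92.

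**Figure D4:**
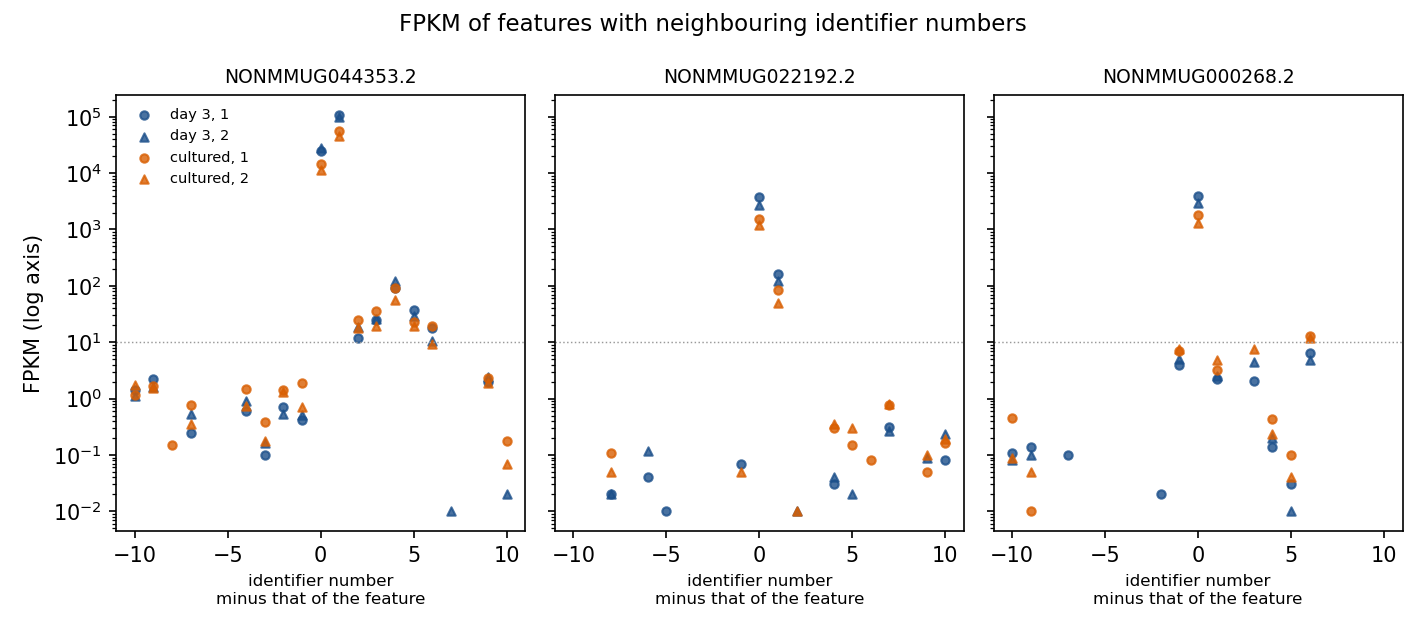
Points give FPKM (vertical log axis) of listed features by identifier number relative to NONMMUG044353.2, NONMMUG022192.2 or NONMMUG000268.2 (horizontal axis) in each library; values of 0 are not drawn and the dotted line marks FPKM 10. NONMMUG044354.2 stands at 1 in the first panel, followed by 4 features at FPKM 10 or above in every library, and NONMMUG022193.2 stands at 1 in the second.

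Among all features, abundance alone did not bring the same pattern. By mean count over the 4 libraries the features took places 1, 5, 9 and 11. NONMMUG018330.2, of 20 transcripts with a mean length of 2907 bases and place 7, was long and more abundant than NONMMUG022192.2 but lay outside the chosen set. It held 2.09% and 1.45% of the listed counts at day 3 and 1.81% and 1.44% after culture, with overlap. NONMMUG020671.2, of 27 transcripts and place 10, held 0.347% and 0.367% at day 3 and 1.32% and 0.822% after culture. The 297-base features NONMMUG009157.2 and NONMMUG009163.2, whose length is that of mt-Nd4l and whose counts were equal in every library, each held 10.8% and 12.2% at day 3 and 16.2% and 18.7% after culture. Among features with a mitochondrial gene length, the share was lower after culture in NONMMUG044353.2 and NONMMUG022192.2, which counts and shares chose. It was higher in the 297-base pair, which may share reads, and NONMMUG055114.1, of mt-Co3 length, was not compared.

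Shares of listed counts are bound to each other, since a feature that holds less leaves more for the rest. As a share of the library totals behind the FPKM values, which also cover RNA outside the tables, the 4 features held 30.2% and 27.6% at day 3 and 15.6% and 12.7% after culture. The mean was 28.9% ± 1.80 and 14.2% ± 2.07 (SD, n = 2 each), a difference of -14.7 percentage points. All other listed features together held 23.7% and 25.9% at day 3 and 31.6% and 31.3% after culture. Without the 4 features the listed counts were 11698815 and 12740792 at day 3 and 14000346 and 12945295 after culture.

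Scaling by listed counts carries the share of the 4 features into the fold change of every other feature, by construction. With that scale, 1079 of 8557 features were called in edgeR (12.6%), 822 higher and 257 lower after culture, and the median log2 fold change of the 8553 other features was 0.67. With the 4 features left out of the totals, 810 were called (9.47%), 319 higher and 491 lower, and the median was 0.11. Only the library sizes differed between these fits, through the same shares that chose the features, so the shift of the median by 0.57 and the move from 76.2% to 39.4% of calls higher are no separate result. With listed counts as the scale, calls numbered 346 (238 higher) without day 3 library 1 and 688 (497 higher) without day 3 library 2. They numbered 1218 (880 higher) without cultured library 1 and 3628 (3161 higher) without cultured library 2. With TMM scaling, which trims extreme features, 14.4% of features were called, 502 higher and 727 lower (40.8% higher), with a median of 0.080. The library totals behind FPKM gave 7.99% called, 415 higher and 269 lower (60.7% higher), with a median of 0.45. Cultured library 1 weighed on the median fold change: with the listed counts as the scale it was 0.31 without that library. With that scale, the median log2 level of the other features was 1.19 and 1.32 at day 3 and 2.13 and 1.55 after culture. With the library totals this level was 0.30 and 0.41 at day 3, 1.04 in cultured library 1 and 0.37 in cultured library 2. Cultured library 2 thus lay between the day 3 libraries. Without the 4 features in the totals it was 2.37 and 2.36 at day 3 and 2.71 and 2.05 after culture. There the cultured libraries lay on opposite sides of day 3.

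**Figure D5:**
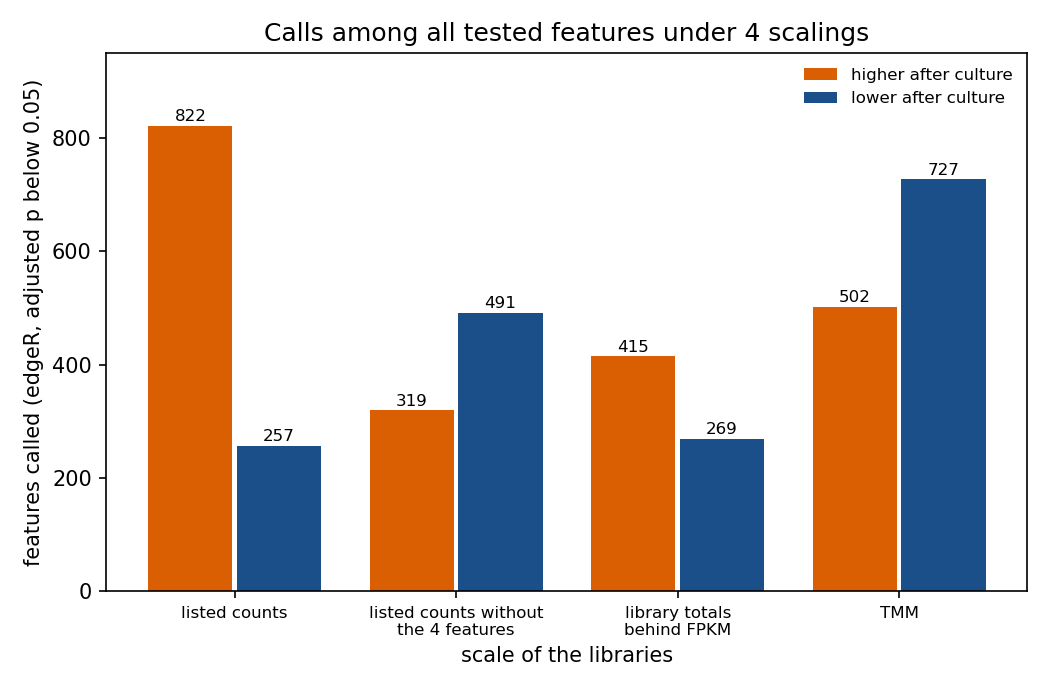
Bars give the number of features called higher or lower after culture (vertical axis, edgeR, adjusted p below 0.05, 8557 tested) under 4 ways of scaling the libraries (horizontal axis). Leaving the 4 features out of the listed counts changes 822 higher and 257 lower to 319 higher and 491 lower.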

How the data were processed

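Ovarian total RNA went into strand-specific TruSeq libraries, per the labels' protocols. HISAT, Cufflinks and mm9 appear in the submitters' processing notes, without roles. The sources used here do not say how the counts were estimated or whether rRNA was removed. Per the file headers, the authors deposited for each library an expected count, FPKM and length (a mean over transcripts) per listed feature. Absent features were set to 0 (the smallest FPKM listed is 0.01). The deposited estimated counts summed to 26566784 and 26324839 at day 3 and 20939363 and 18215834 after culture. Library totals behind FPKM (49298720, 49187449, 44349224 and 41417036) are slopes of count over FPKM on length, from single-transcript features with at least 500 counts and 1000 bases, all within 2% of the line. No identifier matched the reference tables (0), whose build differs, so lengths alone were compared. Wilson 95% intervals cover counting error only.

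Rounded counts of features that reached FPKM 0.5 in at least 2 libraries were tested with edgeR 4.0.16 in R 4.3.3. The test was the quasi-likelihood F test, two-sided, with TMM scaling and Benjamini-Hochberg adjustment. It was also run on simulated counts with known fold changes. These were not set to include the fall in share of the 4 features, so that run does not bear on the scaling. The SE is the log2 fold change over the square root of F. Single measures were compared by exact permutation in scipy 1.17.1. Alternatives were DESeq2 1.42.0, limma 3.58.1 with pseudocounts of FPKM 0.1, 0.5 and 1, other filters and scalings, a replicate block and each library left out. Features, rules and tests were chosen with earlier results of these data known. Features eligible to be named were the 4, the 10 with the highest mean count, those within 10 identifier numbers, the 5 most like NONMMUG044354.2 and those of a mitochondrial gene length; values are given where a comparison turns on them.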

Additional observations from a re-analysis of the deposited data

How the results depend on the processing

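All 4 features stayed lower after culture in the 16 alternatives run on each. In the order NONMMUG044354.2, NONMMUG044353.2, NONMMUG000268.2 and NONMMUG022192.2, log2 fold changes were -1.02, -1.01, -1.25 and -1.24 with the library totals behind FPKM, and -0.79, -0.78, -1.02 and -1.01 with listed counts, added after the data were seen. Limma gave -1.03, -1.03, -1.13 and -1.24 at each pseudocount of FPKM (0.1, 0.5 and 1), whose scale is those totals too. Leaving out 1 library gave -1.22 to -1.58, -1.23 to -1.55, -1.40 to -1.77 and -1.30 to -1.83. Their summed share differed by -14.7 percentage points of the library totals, and by -20.6 to -24.9 points of the listed counts without 1 library. The ratio of NONMMUG044354.2 to NONMMUG044353.2 differed between groups by -0.087, and by -1.22 to 1.05 without 1 library, so its sign rests on single libraries. The median of the other features, 0.67 with listed counts, was 0.080 with TMM, 0.11 without the 4 features and 0.31 to 0.90 without 1 library. Against 1229 calls (502 higher, 727 lower), 684 (269 lower) were made with the library totals, 2540 (1133 and 1407) with no filter, where more features were tested, and 744 (309 and 435) at FPKM 1, where fewer were. Limma gave 741 (338 lower), 380 lower and 747 (356 lower) at pseudocounts of 0.1, 0.5 and 1. Without 1 library, 586 (without day 3 library 1; 775 without cultured library 1) to 1260 were called, 232 to 412 higher and 354 to 848 lower. Scaling by listed counts gave 822 higher and 257 lower, and without the 4 features 810 calls with 319 higher, both added after the data were seen. Except where stated, the cause was not tested. Counting error was at most ± 0.0201 percentage points of a share for the 4 features, and what depth limits for low features was not tested. A replicate block gave 1204 calls; the labels do not tie equal numbers to a shared source, and deviations from the group means were not alike between equal numbers (r = -0.12 over the features tested). A crossed pairing, also added later, gave 980.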
